A study of Mus musculus with 8 samples.

Results

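Glucose uptake and glycolysis were followed in developing mouse adipose tissue through 10 genes, 2 glucose transporters (Slc2a1 and Slc2a4) and 8 enzymes (Hk1, Hk2, Pfkl, Aldoa, Tpi1, Gapdh, Pgk1 and Ldha). They were chosen by name and taken with every probe that the array annotation gives them, which came to 14 of 25697 probes and 10 of 18312 genes and unnamed probes. The tissue was labelled as developing adipose tissue of C57BL/6 mice, with no genetic change or treatment, at 4 daily embryonic stages from e15.5 to e18.5 and the postnatal stages P0, P2, P5 and P12. Each stage was 1 RNA pool on 1 Illumina MouseRef-8 BeadChip, an array of bead-bound probes. A pool held at least 3 embryos by one label and 4 by another, and the fat depot is not given in the sources used here.

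Glucose enters cells through facilitative transporters of the Slc2a family. Slc2a1 is the widely expressed transporter of basal uptake, and Slc2a4 is the transporter that insulin brings to the surface of fat and muscle cells. Inside the cell hexokinases trap glucose as glucose 6-phosphate, phosphofructokinase commits it to glycolysis, aldolase splits the hexose and later enzymes carry it to pyruvate, which lactate dehydrogenase can turn into lactate. In fat cells glycolysis also supplies the glycerol 3-phosphate on which triglyceride is built.

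Adipocyte markers were low on the first array and high on later ones: the mean of the 10 tested markers was 7.91 at e15.5 on the log2 scale, had reached 11.33 by e18.5 and stood at 11.74 at P12. Adipoq, the gene of the adipocyte hormone adiponectin, went from 8.43 to 13.49 over the series. The probe of Fabp4, the fatty acid carrier of fat cells, stayed near the floor at 6.78 to 7.23 and was not in the mean. Markers of other tissues were present as well. The mean of 15 skeletal muscle markers was 12.58 at e15.5 and 11.39 at P0, against 7.53 to 8.94 on the other 6 arrays. Myh8, a myosin heavy chain of fetal muscle, was at 14.93 and 14.87 on those 2 arrays and at 6.98 to 11.01 elsewhere. The mean of 12 epidermal markers was likewise highest at e15.5 (11.68) and P0 (10.56), against 7.21 to 9.29 elsewhere. Each marker mean took only markers that reached 7.5 on at least 2 arrays. These were 10 of 12 adipocyte, 15 of 23 muscle and 12 of 17 epidermal markers with a probe. Among the muscle and epidermal markers some did so only at e15.5 and P0, and some left out stayed under 7.5 throughout. In such bulk samples fewer cells of a type and less RNA per cell cannot be told apart. All values below are the authors' log2 intensities, in which the whole array ran from 6.66 to 15.10 and values under 7.5 lie near its floor. No stage was replicated, so errors come from the scatter of stages around a line or within a period.

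The 250 bases upstream of the annotated start are shown for the 3 members whose level fell with age, to set them beside each other. They come from RefSeq on build GRCm38.p6 and read 5′ to 3′ on the gene's strand. Slc2a1 lies at chr4:119108495-119108744 on the plus strand, Gapdh at chr6:125165774-125166023 on the minus strand and Tpi1 at chr6:124814159-124814408 on the minus strand. Capitals mark ACGTG on either strand, a form of the core letters of the site bound by hypoxia-inducible factors. Other forms of that core, such as GCGTG, were not marked or counted.
Slc2a1: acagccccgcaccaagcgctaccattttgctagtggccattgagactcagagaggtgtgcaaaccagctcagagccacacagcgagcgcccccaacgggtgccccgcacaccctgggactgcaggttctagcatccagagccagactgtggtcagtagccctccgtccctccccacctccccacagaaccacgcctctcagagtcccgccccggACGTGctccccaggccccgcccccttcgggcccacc
Gapdh: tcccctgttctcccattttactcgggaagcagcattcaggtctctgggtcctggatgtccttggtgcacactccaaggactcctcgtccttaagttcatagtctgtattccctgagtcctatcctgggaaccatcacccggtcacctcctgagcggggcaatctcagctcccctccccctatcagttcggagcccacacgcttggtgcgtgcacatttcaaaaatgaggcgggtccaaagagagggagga
Tpi1: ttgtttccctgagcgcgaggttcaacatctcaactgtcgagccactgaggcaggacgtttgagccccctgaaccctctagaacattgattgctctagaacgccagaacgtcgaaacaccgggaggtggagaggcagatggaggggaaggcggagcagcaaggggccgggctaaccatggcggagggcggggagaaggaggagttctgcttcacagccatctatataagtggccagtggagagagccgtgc
The Slc2a1 window held the motif 1 time, and the Gapdh and Tpi1 windows did not hold these letters. Of the members whose level did not pass the test in either direction, Hk2 and 1 of 2 Ldha windows are shown with the same marking, because they hold the most copies of it. Hk2 lies at chr6:82774455-82774704 on the minus strand, and the upstream of the 2 Ldha windows lies at chr7:46845554-46845803 on the plus strand.
Hk2: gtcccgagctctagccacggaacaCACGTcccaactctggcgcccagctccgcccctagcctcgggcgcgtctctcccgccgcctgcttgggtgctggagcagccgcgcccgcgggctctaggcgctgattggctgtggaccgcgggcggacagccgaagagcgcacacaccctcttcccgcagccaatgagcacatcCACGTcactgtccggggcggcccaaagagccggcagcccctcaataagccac
Ldha: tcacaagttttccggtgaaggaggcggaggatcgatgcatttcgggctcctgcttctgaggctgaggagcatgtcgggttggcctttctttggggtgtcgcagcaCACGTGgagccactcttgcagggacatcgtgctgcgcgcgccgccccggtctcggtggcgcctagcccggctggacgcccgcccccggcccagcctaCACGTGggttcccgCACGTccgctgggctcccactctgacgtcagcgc
The Hk2 window held 2 copies and the Ldha window 5. Among the windows not shown, the other Ldha window, the Pfkl window and both Hk1 windows held 0, the 3 Aldoa windows 1, 1 and 0, and the Pgk1 window 2. The Ldha window holds 2 CACGTG palindromes, each of which counts on both strands. Of the 10 members 9 matched the RefSeq table, with 13 windows in all, and 6 of these windows, belonging to 5 members, held ACGTG. The 2 Aldoa windows among the 6 overlap and share 1 match, which is counted in both. Over all 32851 windows of the same length the share was 16.6%. The palindrome CACGTG, which contains ACGTG, was in 6.02% of all windows. A match is a run of letters and was not tested as a binding site.

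The transporters moved in opposite directions. Slc2a1 fell with stage and Slc2a4 rose, with fitted slopes of similar size on the log2 scale. Slc2a4 was under 7.5 at e15.5 and e16.5, so the size of its slope is less sure. The level of Slc2a1 (probe ILMN_1258159) was 11.35 at e15.5, 10.56 at e16.5, 10.30 at e17.5, 10.08 at e18.5, 9.46 at P0, 9.17 at P2, 9.23 at P5, then 9.83 at P12. It was highest on the earliest array, stepped down through P2 and was higher again at P12, and all 4 postnatal arrays lay below all 4 embryonic ones. The slope was -0.25 log2 per stage (SE 0.06, n = 8 arrays, adjusted p = 0.0112 by limma with Benjamini-Hochberg adjustment over 7446 features). From e15.5 to P12 the level was 2.88-fold lower, and from e15.5 to its lowest point at P2 4.54-fold lower. The slope rested in part on the first array: without e15.5 it was -0.19, with an adjusted p of 0.0589 by limma. The mean of the 7 tested erythroid markers was also highest at e15.5, at 11.05, and was 8.92 at P12, and 5 of the 7 fell. Its part in the Slc2a1 result was not tested.

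The level of Slc2a4 (ILMN_1222333) was 7.38 at e15.5, 7.44 at e16.5, 8.09 at e17.5, 8.38 at e18.5, 8.63 at P0, 8.57 at P2, 8.89 at P5, then 9.13 at P12. The first 2 arrays were near the floor and the highest value came last, with all 4 postnatal arrays above all 4 embryonic ones. The slope was 0.25 log2 per stage (SE 0.03, n = 8, limma adjusted p = 0.000963). Since e15.5 was below 7.5, the level at P12 was at least 3.10-fold higher than there. Of the 2 muscle-rich arrays, Slc2a4 at e15.5 was 0.06 lower than at e16.5 on the log2 scale. Both values were under 7.5, where differences are compressed, so that comparison cannot show whether e15.5 stood out. At P0 Slc2a4 was 0.15 above the mean of e18.5 and P2. In the same comparisons the muscle marker mean was 3.64 higher at e15.5 and 3.37 higher at P0. The part of muscle in the Slc2a4 level was not tested.

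Within each array the log2 value of Slc2a4 minus that of Slc2a1 was -3.97 at e15.5, -3.12 at e16.5, -2.21 at e17.5, -1.69 at e18.5, -0.83 at P0, -0.59 at P2, -0.34 at P5, then -0.69 at P12. Because 2 probes differ in brightness, only the change of this difference can be read, not its size or sign. It went up at every step except the last. The slope was 0.51 log2 per stage (SE 0.08, n = 8), with a two-sided p of 0.000397 in an exact permutation test over all 40320 orders of the arrays, where the smallest possible p is 4.96e-05. Between e15.5 and P12 the ratio of Slc2a4 to Slc2a1 shifted at least 8.91-fold, with Slc2a4 at e15.5 set to 7.5. Without e15.5 and P0, the slope was 0.43 per stage and the exact permutation p 0.0111 (n = 6).

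**Figure D1:**
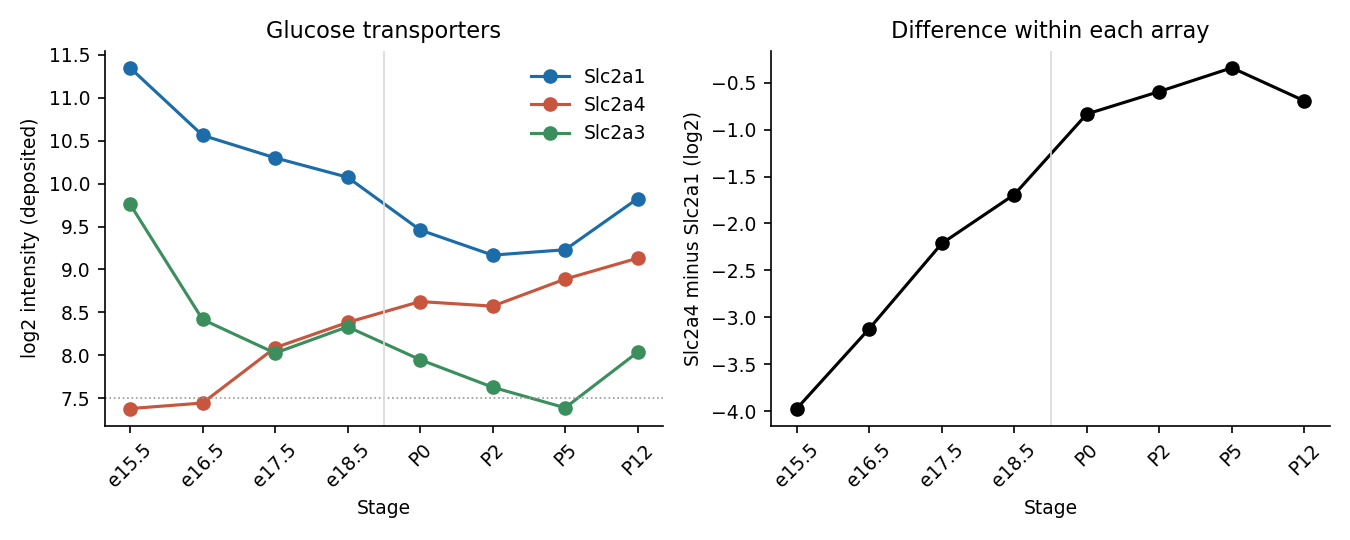
The left panel plots the log2 intensity (y axis) of Slc2a1, Slc2a4 and Slc2a3 on the 8 arrays in stage order (x axis), 1 point per pool, and the right panel the log2 value of Slc2a4 minus that of Slc2a1, with birth as a vertical line and the 7.5 minimum dotted. Slc2a1 goes from 11.35 to 9.83 and Slc2a4 from 7.38 to 9.13, and the difference goes from -3.97 to -0.69.

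Among the enzymes Gapdh and Tpi1 fell and no member rose. Gapdh, which oxidises glyceraldehyde 3-phosphate, was at 13.18 at e15.5, 12.70 at e16.5, 12.91 at e17.5, 13.08 at e18.5, 12.25 at P0, 12.10 at P2, 11.68 at P5, then 11.997 at P12 (ILMN_2588056). Its embryonic values were close together, and all 4 postnatal values lay below them. The slope was -0.20 log2 per stage (SE 0.04, n = 8, limma adjusted p = 0.00712), and the level at P12 was 2.28-fold lower than at e15.5. A second Gapdh probe, ILMN_1377924, gave a slope of -0.21 (limma adjusted p = 0.00779 over 9387 probes), with 12.50 at e15.5 and 11.15 at P12. Gapdh is often used as a reference gene for scaling other measurements. Of 7 tested genes in common use as references, Rplp0 (slope -0.22, limma adjusted p = 0.000314) and Ywhaz (-0.10, 0.0134) fell, B2m rose (0.18, 0.00873), and Actb, Hprt, Tbp and Gusb did not pass, with slopes of 0.02, -0.06, -0.03 and -0.02. Without e15.5 the Ywhaz adjusted p was 0.0694 by limma. Without e15.5 and P0 together 1 of the 7 passed, as did 2126 of the 7446 tested features. With all 8 arrays, 20.7% of the tested features fell and 18.3% rose.

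Tpi1, which interconverts the 2 triose phosphates, had 3 probes. The brightest, ILMN_1230137, was at 13.46 at e15.5, 13.01 at e16.5, 13.34 at e17.5, 13.08 at e18.5, 12.71 at P0, 12.73 at P2, 12.81 at P5, then 12.59 at P12. The postnatal arrays again lay below all embryonic ones, in a range narrower than that of Gapdh. The slope was -0.11 log2 per stage (SE 0.03, n = 8, limma adjusted p = 0.0126), a 1.83-fold lower level at P12 than at e15.5. The probe ILMN_2932359 gave a slope of -0.12 (limma adjusted p = 0.0182), while the dim probe ILMN_1231447, at 7.42 to 7.88, gave 0.01 (adjusted p = 0.659). Tpi1 no longer passed without e15.5 (limma adjusted p = 0.0617) or without P12 (0.0502).

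Hk2, the insulin-responsive hexokinase of muscle and fat, had its highest values on the last 2 arrays. Its level (ILMN_1239397) was 11.72 at e15.5, 11.02 at e16.5, 11.52 at e17.5, 11.69 at e18.5, 11.42 at P0, 11.68 at P2, 11.9998 at P5, then 12.35 at P12. The slope of 0.11 log2 per stage (SE 0.04, n = 8) did not pass, with a limma adjusted p of 0.0605. Without e15.5, where Hk2 was 0.70 above e16.5, the slope was 0.18 and passed, with a limma adjusted p of 0.0136. Without e16.5 it was 0.08 and without P12 0.07, with limma adjusted p of 0.160 and 0.277. With the muscle marker mean as a covariate it was 0.13 (limma adjusted p = 0.135). Hk1, the broadly expressed hexokinase, was between 6.93 and 7.18 on its 1 probe (ILMN_2644025), near the floor on all 8 arrays, and was not tested.

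Pfkl, the liver-type subunit of phosphofructokinase, was highest at e17.5 and lowest at P0. Its level (ILMN_1236539) was 10.90 at e15.5, 11.35 at e16.5, 11.98 at e17.5, 11.64 at e18.5, 10.49 at P0, 11.30 at P2, 11.42 at P5, then 11.46 at P12, with a slope of 0.01 (SE 0.07, limma adjusted p = 0.886). The 2 lowest of its 8 values were those of the muscle-rich arrays, P0 and e15.5. A second Pfkl probe, ILMN_2871325, stayed between 7.03 and 7.26 and was not tested.

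Aldoa, the aldolase of muscle and most other tissues, was at 11.43 at e15.5, 10.64 at e16.5, 11.99 at e17.5, 12.40 at e18.5, 11.43 at P0, 11.37 at P2, 11.30 at P5, then 11.64 at P12 (ILMN_2599130). It was lowest at e16.5 and highest at e18.5, with postnatal values inside that range, and its slope was 0.02 (SE 0.07, limma adjusted p = 0.820). Ldha, the lactate dehydrogenase subunit that favours lactate formation, was at 12.82 at e15.5, 12.79 at e16.5, 13.18 at e17.5, 13.23 at e18.5, 12.33 at P0, 12.83 at P2, 12.69 at P5, then 12.76 at P12 (ILMN_1257965). It stayed high on every array, with P0 the lowest, and its slope was -0.03 (SE 0.04, limma adjusted p = 0.522). Pgk1, the first enzyme of the pathway to yield ATP, was between 6.85 and 7.04 on its 1 probe (ILMN_2797973) and was not tested. Values so near the floor bound the signal of that probe only.

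**Figure D2:**
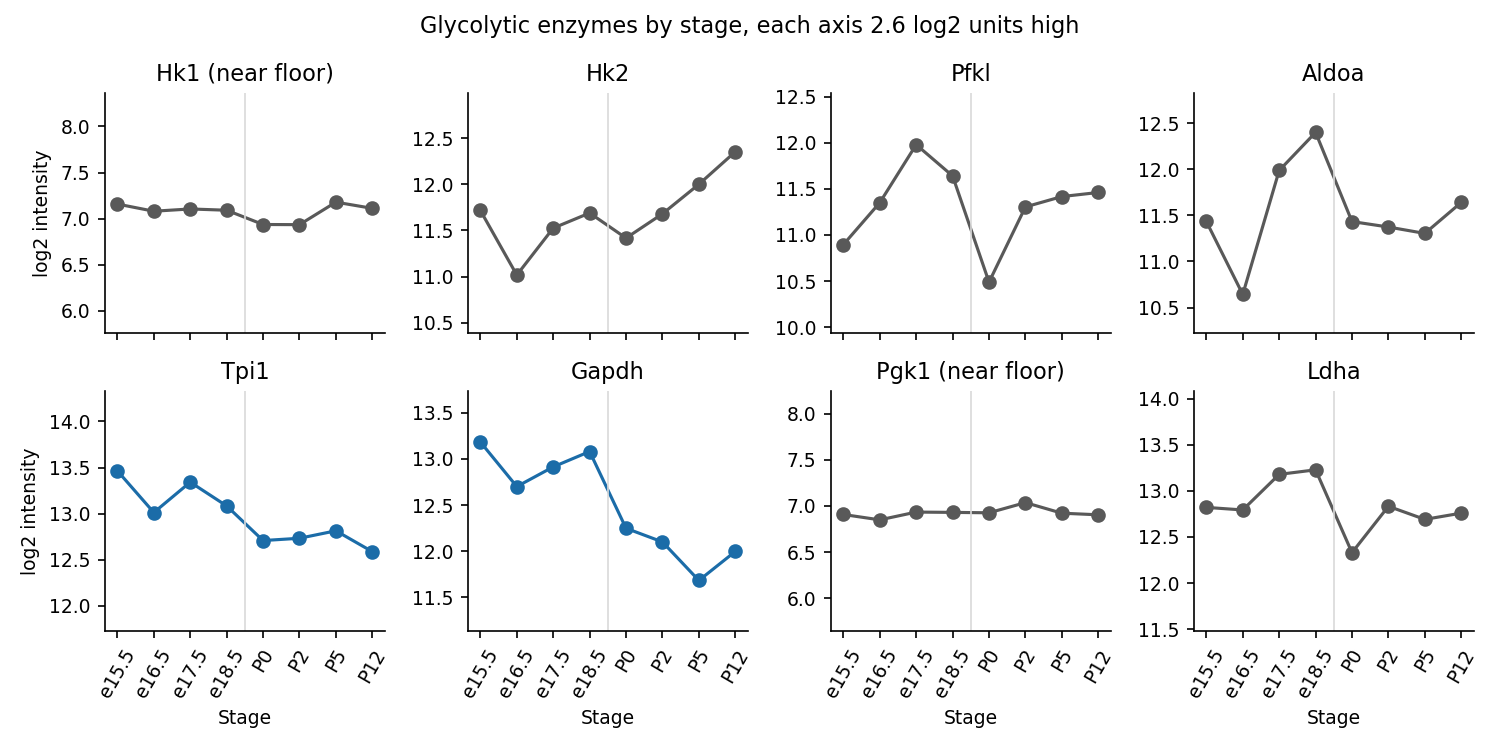
Log2 intensity (y axis) of the 8 member enzymes at the 8 stages (x axis), 1 point per array, brightest probe per gene, on axes of equal height but different start, with birth as a vertical line. Gapdh and Tpi1 are lower on all 4 postnatal arrays than on all embryonic ones, Hk2 ends at its highest value of 12.35, and Hk1 and Pgk1 stay near the floor.

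Of the 8 members that reached 7.5 on at least 2 arrays, 3 fell and 1 rose, and 4 did not pass. Over all 7446 tested features 20.7% fell and 18.3% rose by the same limma rule, so calls in both directions were common on these arrays. Whether the members' shares differ from these was not tested. The median slope was -0.01 log2 per stage over the 8 members and -0.00397 over all features. Hk1 and Pgk1 did not enter these counts.

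**Figure D3:**
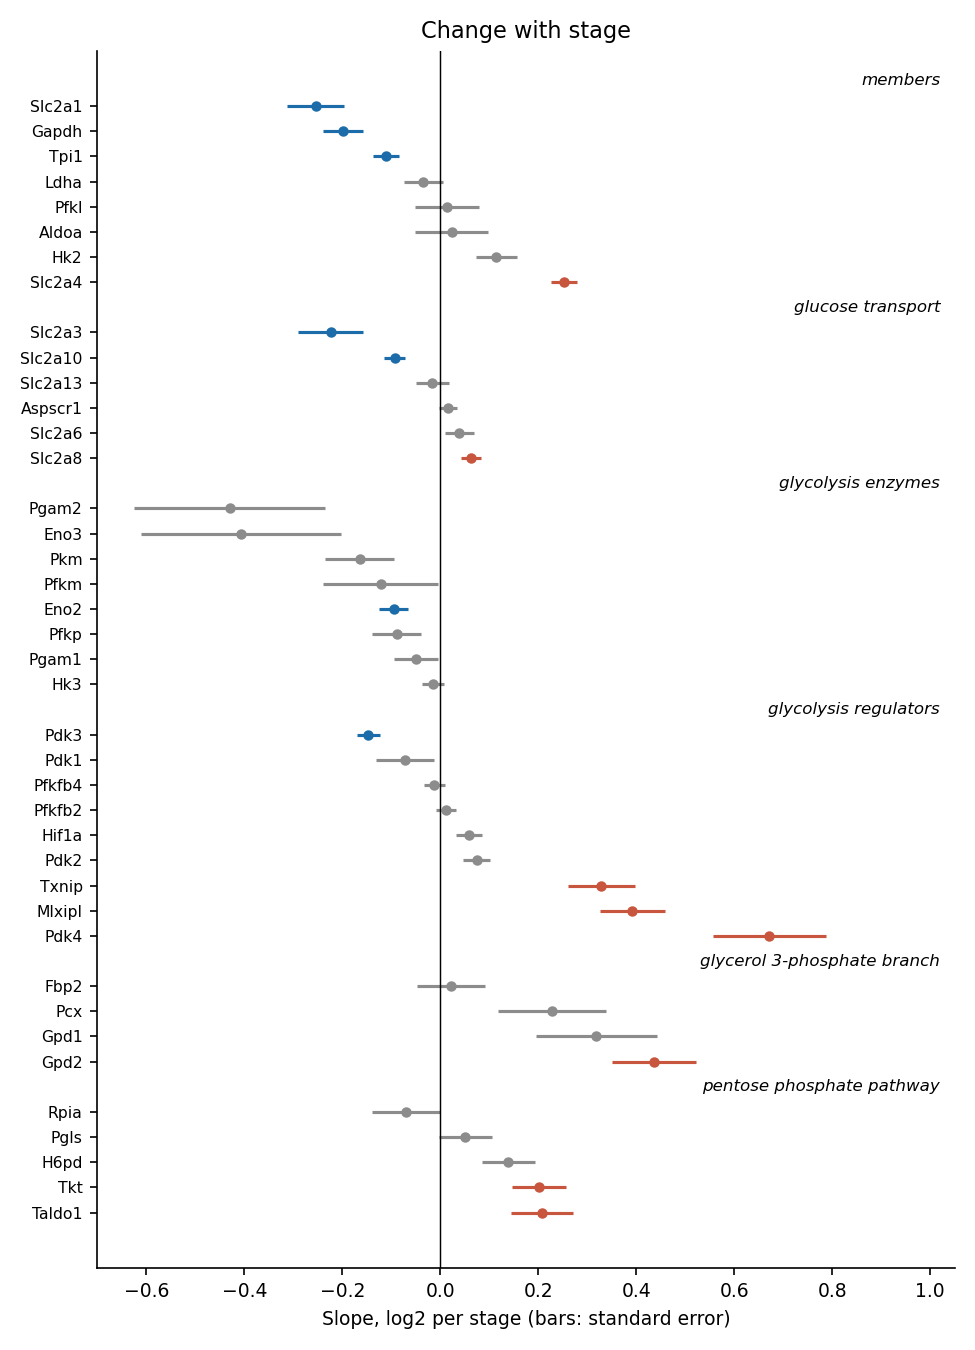
Slope in log2 per stage (x axis) with its standard error as a bar, for the 8 tested members and the other tested genes of the pathway lists (y axis), in red where limma's adjusted p passed 0.05 upwards, blue where it passed downwards and grey elsewhere. Slc2a1 and Slc2a4 lie at -0.25 and 0.25, Pdk4 lies farthest above 0 at 0.67, and Pgam2 and Eno3 lie farthest below 0 in grey with wide bars.

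Embryonic and postnatal periods were then compared, 4 arrays against 4. Slc2a1 was at 10.57 ± 0.56 before birth and 9.42 ± 0.30 after (SD, n = 4), Gapdh at 12.97 ± 0.21 and 12.01 ± 0.24, Tpi1 at 13.23 ± 0.21 and 12.71 ± 0.09, and Slc2a4 at 7.82 ± 0.49 and 8.80 ± 0.26. The differences were -1.15 (SE 0.28) for Slc2a1, -0.96 (SE 0.15) for Gapdh, -0.51 (SE 0.12) for Tpi1 and 0.98 (SE 0.25) for Slc2a4. None of these 4 passed after adjustment over all features, with limma adjusted p of 0.0605, 0.0538, 0.0579 and 0.0636. In all, 0 of 8 members passed, as did 0.0134% of the tested features (1 of 7446), and 4 of 8 members had an unadjusted limma p under 0.05, as did 32.9% of the tested features (2449 of 7446). The count of 0 members changed with the arrays and settings used: without e18.5 the same 4 members passed, with 1880 features in all. With array weights 5 members passed, with 1798 features. The other tested members differed by 0.38 for Hk2 (SE 0.23), -0.30 for Pfkl (SE 0.29), -0.18 for Aldoa (SE 0.34) and -0.35 for Ldha (SE 0.15). All postnatal arrays lay below all embryonic ones for 3 of 8 members (10.7% of tested features) and above them for 1 of 8 (8.21%).

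The step across birth had the largest median difference of the members among the 7 steps between neighbouring stages. From e18.5 to P0, 7 of the 8 tested members were lower, with a median difference of -0.72 log2, while the median of all features was -0.00478 and 50.8% of them were lower. Pfkl was lower by 1.15 log2 (2.22-fold), Aldoa by 0.97, Ldha by 0.90, Gapdh by 0.83 and Slc2a1 by 0.61. Tpi1 and Hk2 were lower by 0.38 and 0.27, and Slc2a4 alone was higher, by 0.24. Only Pfkl, 1 of 8 members, reached 2-fold, as did 1.63% of all features in that direction. By P2, Pfkl and Ldha were back up by 0.82 and 0.50 log2, while Gapdh, Slc2a1 and Aldoa were a further 0.15, 0.29 and 0.06 lower. Over the same step from e18.5 to P0 the muscle marker mean went from 7.64 to 11.39, the epidermal mean from 7.53 to 10.56 and the adipocyte mean from 11.33 to 11.42. The part of this admixture in the lower member levels at P0 was not tested. Each value rests on 1 array per stage, so no test was possible.

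From e16.5 to e17.5 the members were mostly higher, 7 of 8, with a median of 0.45 log2, while 57.2% of all features were lower, with a median of -0.05. Aldoa was 1.34 higher, a 2.54-fold step and the other of the 2 that reached 2-fold among 56 member steps. Over all features 2.23% were higher by 2-fold or more in that step. Slc2a4, Pfkl and Hk2 were 0.64, 0.63 and 0.51 higher, and Slc2a1 was 0.26 lower. On these 2 arrays the adipocyte marker mean was 9.32 and 10.90, the brown fat mean 7.17 and 8.50, the muscle mean 8.94 and 8.69 and the epidermal mean 9.29 and 7.43, and their part in this step was not tested. From P5 to P12, 7 of 8 members were again higher, with a median of 0.28, while 53.5% of all features were lower, with a median of -0.02. The members were led by Slc2a1 at 0.60, Hk2 at 0.35, Aldoa at 0.34 and Gapdh at 0.31.

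The 2 muscle-rich arrays were examined through glycolytic enzymes with known muscle forms. Eno3, the muscle enolase, was at 12.25 at e15.5 and 10.27 at P0, and between 7.35 and 8.12 on the other arrays. Pgam2, the muscle phosphoglycerate mutase, was at 11.74 and 9.71 on those 2 arrays and at 6.90 to 7.77 elsewhere. Both were thus high where the muscle markers were high: at e15.5 Eno3 was 18.2-fold and Pgam2 15.7-fold above e16.5. Pfkm, the muscle phosphofructokinase subunit, was 3.78-fold above e16.5 at e15.5 and 2.42-fold above the mean of its neighbours at P0.

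The members did not share this pattern on both arrays. At e15.5 against e16.5, Slc2a1, Aldoa, Hk2, Gapdh and Tpi1 were higher by 0.79, 0.79, 0.70, 0.48 and 0.45 log2, Ldha differed by 0.03, and Slc2a4 and Pfkl were at -0.06 and -0.45. At P0 against the mean of e18.5 and P2, only Slc2a4 was higher (0.15), and the others were at -0.16 for Slc2a1, -0.20 for Tpi1, -0.27 for Hk2, -0.34 for Gapdh, -0.45 for Aldoa, -0.70 for Ldha and -0.98 for Pfkl. The medians of all features were -0.08 and -0.02 in these comparisons.

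**Figure D4:**
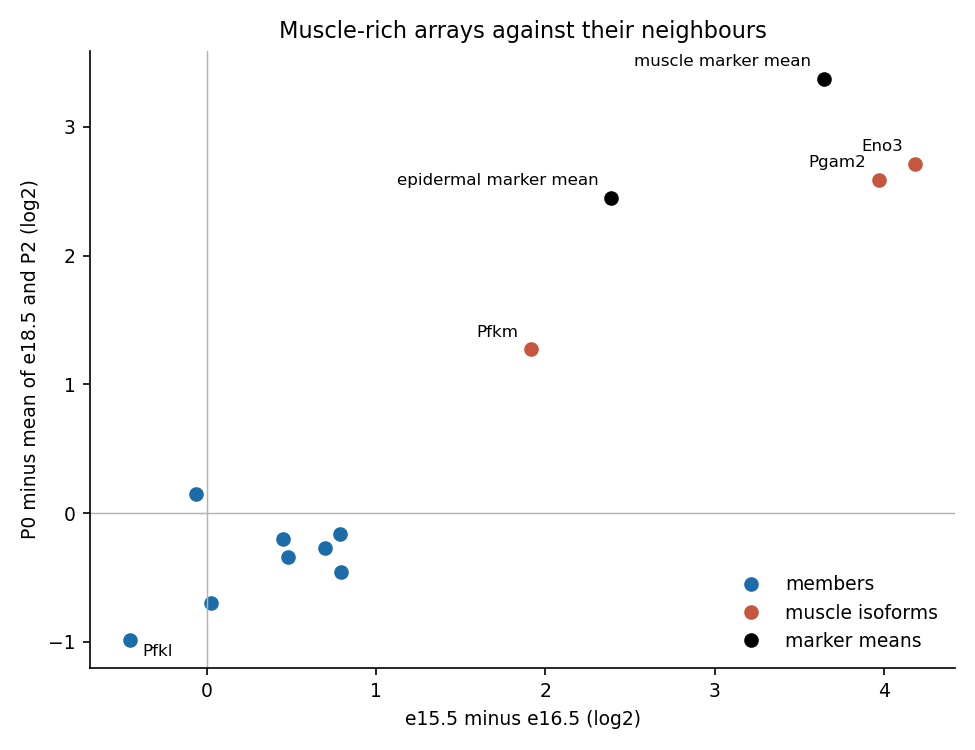
Log2 difference of the e15.5 array from e16.5 (x axis) against that of the P0 array from the mean of e18.5 and P2 (y axis), with 1 point per member (blue), muscle isoform (red) or marker mean (black) and 1 array per stage. Eno3 and Pgam2 lie near the muscle marker mean, while every tested member but Slc2a4 is below 0 on the y axis.

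Apart from Slc2a3, the other tested glucose transport genes had narrower ranges than Slc2a1 and Slc2a4. Of 15 listed genes 12 had a named probe and 8 were tested. Of these 3 fell and 2 rose, against 20.7% and 18.3% of all tested features. Slc2a3, a transporter best known from neurons, fell by 0.22 log2 per stage (SE 0.07, limma adjusted p = 0.0304), from 9.76 at e15.5 to 8.42 at e16.5 and 8.04 at P12. Its call rested on single arrays: without e15.5, P2 or P5 in turn the limma adjusted p was 0.127, 0.0551 and 0.0809. Slc2a10 fell within a narrow band near the floor (7.76 at e15.5 and 7.20 at P12, adjusted p = 0.0106), and Slc2a8, an intracellular family member, rose between 7.23 and 7.70 (slope 0.06, adjusted p = 0.0374). The Slc2a8 call was lost without any of e15.5, e16.5, e17.5, P2 or P5, with limma adjusted p of 0.0637 to 0.149. Without e15.5 and P0 together, 2 genes of the list passed in place of 5, and 2126 of all features in place of 2905.

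Of 24 listed glycolysis enzymes 19 had a named probe and 14 were tested. With Gapdh and Tpi1, Eno2, the enolase typical of neurons, fell (slope -0.10, SE 0.03, limma adjusted p = 0.0366), and 0 of the 14 rose. Of all tested features 20.7% fell and 18.3% rose. Slopes were below 0 for 11 of the 14, with a median of -0.09, and for 51.7% of all tested features. The 2 lowest slopes were those of Pgam2 and Eno3 (-0.43 and -0.41), which were high on the muscle-rich arrays. Without the muscle forms Pfkm, Pgam2 and Eno3, a choice made after the values were seen, 8 of 11 slopes were below 0, with a median of -0.05. Eno2 lay between 7.56 and 8.49, and its call was lost without any of e15.5, e16.5, e17.5, P2, P5 or P12, with limma adjusted p of 0.0525 to 0.0840. Pkm, the pyruvate kinase of most tissues, was at 11.86 at e15.5, 11.05 at e16.5, 11.12 at e17.5, 11.02 at e18.5, 10.07 at P0, 10.02 at P2, 10.31 at P5, then 11.03 at P12. Like Slc2a1, Pkm was highest at e15.5, lowest at P2 and higher again at P12, but its slope of -0.16 (SE 0.07) did not pass, with a limma adjusted p of 0.0948. Pfkp, the platelet-type phosphofructokinase subunit, ran from 8.83 at e15.5 to 7.57 at P0 and 8.32 at P12 (adjusted p = 0.184). Pgam1 lay between 8.57 and 9.60, Hk3 between 7.30 and 7.68, and Aldoc between 6.91 and 8.02. Pgam1 and Hk3 did not pass, with limma adjusted p of 0.400 and 0.635, and Aldoc was not tested. Eno1, Gpi1 and Ldhb were not analysed here.

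Pdk4 had the steepest slope of any tested gene in the pathway lists. Of 9 tested regulators 3 rose and 1 fell, against 18.3% and 20.7% of all tested features. This gene, a kinase that shuts off pyruvate dehydrogenase, was at 7.73 at e15.5, 7.31 at e16.5, 7.66 at e17.5, 10.23 at e18.5, 9.06 at P0, 9.34 at P2, 11.26 at P5, then 12.41 at P12. It stepped up at e18.5 and again at P5, and rose 0.67 log2 per stage (SE 0.12, limma adjusted p = 0.00393), a 25.6-fold higher level at P12 than at e15.5. Pdk3, a kinase of the same family, fell (slope -0.15, SE 0.02, adjusted p = 0.00322). Mlxipl, the glucose-sensing transcription factor, rose from 7.14 at e15.5 to 9.35 at e17.5 and 10.47 at P12 (slope 0.39, SE 0.07, adjusted p = 0.00364), at least 7.83-fold from the first to the last array. Txnip, which restrains glucose uptake and is a target of that factor, rose from 9.97 to 12.53 (slope 0.33, SE 0.07, adjusted p = 0.00758), with its largest step at e18.5 (12.08). Hif1a, the oxygen-sensing subunit of the hypoxia-inducible factor, lay between 7.97 and 8.52 and did not pass (adjusted p = 0.107). Pdk1 (8.23 to 9.40) and Pdk2 (7.08 to 7.73) did not pass, with adjusted p of 0.357 and 0.0576.

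In the glycerol 3-phosphate branch, Gpd2, the mitochondrial dehydrogenase that oxidises glycerol 3-phosphate, was at 7.998 at e15.5, 7.98 at e16.5, 8.11 at e17.5, 8.73 at e18.5, 8.54 at P0, 8.69 at P2, 10.27 at P5, then 11.39 at P12. Most of its change lay in the last 2 arrays, and it rose 0.44 log2 per stage (SE 0.09, limma adjusted p = 0.00616), to a level 10.5-fold higher at P12 than at e15.5. The brown fat marker mean was also highest on those arrays, at 11.79 at P5, then 11.94 at P12 against 7.17 to 10.42 before, and 5 of its 6 tested markers rose. Its part in the Gpd2 and Pdk4 results was not tested. Gpd1, the cytosolic enzyme that makes glycerol 3-phosphate, was at 7.16 at e15.5, 8.94 at e16.5, 10.53 at e17.5, 10.44 at e18.5, 9.87 at P0, 10.59 at P2, 10.03 at P5, then 10.26 at P12. It reached its later level by e17.5, so that a line described it poorly (slope 0.32, SE 0.12, adjusted p = 0.0712), and e18.5 was at least 7.69-fold above e15.5. Pcx, pyruvate carboxylase, was at 6.91 at e15.5, was highest at e18.5 (9.84) and ended at 8.66 (adjusted p = 0.130).

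In the pentose phosphate pathway 2 of 5 tested genes rose, as did 18.3% of all tested features. Both belong to its non-oxidative part, as does Rpia, which did not pass (slope -0.07, limma adjusted p = 0.443). G6pdx and Pgd of the oxidative part had no named probe, so the 2 parts cannot be compared. Tkt, transketolase, went from 9.85 at e15.5 to 11.87 at P12 (slope 0.20, SE 0.05, limma adjusted p = 0.0210), and Taldo1, transaldolase, from 11.03 to 12.49 (slope 0.21, SE 0.06, adjusted p = 0.0322). Taldo1 had its highest value, 12.79, at e18.5. Both calls rested on single arrays: Tkt was lost without e15.5, e16.5 or P12 (adjusted p of 0.110, 0.0538 and 0.108), and Taldo1 without e15.5, e16.5, P2 or P5 (0.154, 0.0931, 0.0546 and 0.0550). Without e15.5 and P0 together 0 of the 5 passed, against 2126 of the 7446 tested features.

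**Figure D5:**
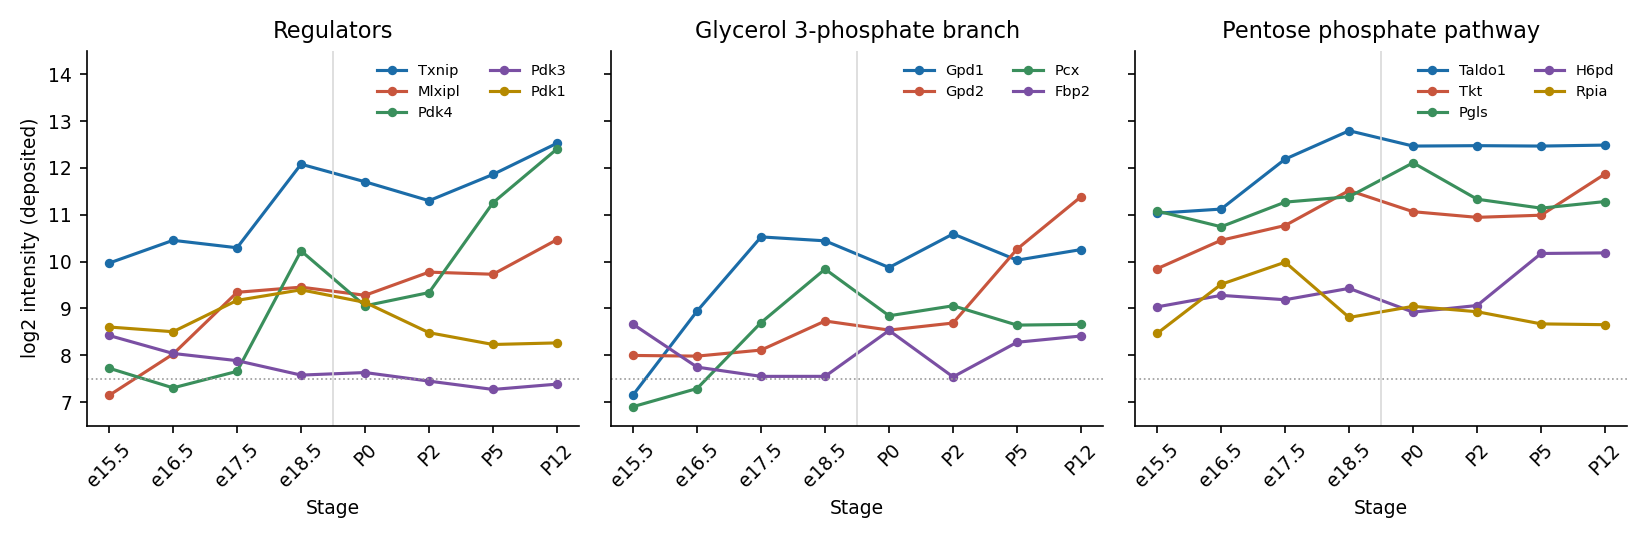
Log2 intensity (y axis) at the 8 stages (x axis) of genes around glycolysis: regulators (left), the glycerol 3-phosphate branch (middle) and the pentose phosphate pathway (right), 1 point per array, with birth as a vertical line and the 7.5 minimum dotted. Pdk4, Mlxipl, Txnip and Gpd2 end at their highest values, 12.41, 10.47, 12.53 and 11.39, while Gpd1 is at 10.53 by e17.5.

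Likeness of profile was described by Pearson's r over the 8 arrays against 6843 other tested genes (clone-named symbols left out), which share the same arrays and normalization. For Slc2a1 the 5 highest were Ak4, a mitochondrial adenylate kinase (0.964), Hpse, heparanase (0.961), Vegfd, a vascular growth factor (0.956), Zc3hc1 (0.950) and Psmd7, a proteasome subunit (0.942). Ak4, Hpse and Vegfd were dim, at 6.91 to 8.43. For Slc2a4 the 5 highest were Nudt7, a peroxisomal coenzyme A hydrolase (0.997), Acadm, the medium-chain acyl-CoA dehydrogenase (0.993), Uck1, a uridine kinase (0.993), Pop5, a ribonuclease P subunit (0.991), and Decr1, a reductase of mitochondrial fatty acid oxidation (0.991). Acadm went from 11.62 at e15.5 to 14.62 at P12 and Nudt7 from 8.92 to 11.82. Among the members, r was -0.84 for Slc2a1 with Slc2a4, 0.86 for Tpi1 with Gapdh, 0.84 for Pfkl with Ldha, 0.83 for Slc2a1 with Gapdh and 0.82 for Slc2a1 with Tpi1. For Slc2a4 it was -0.80 with Tpi1, -0.78 with Gapdh and 0.70 with Hk2, and all other pairs of members were weaker.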

How the data were processed

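The authors deposited processed log2 intensities of 25697 probes, with 1 column for each stage. Biotin-labelled RNA was hybridized to Illumina MouseRef-8 BeadChips and extracted with BeadStudio, per the labels' protocols. The log base was read from the range. Sorted values were equal between the 8 columns to within 0.00496, so all arrays have the same distribution and a change in total signal cannot be seen; how the values were normalized and corrected for background is not given in the sources used here. A second table of unnormalized signals was not used, since its 16 per-sample columns match no sample label.

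Of the probes 23978 have 1 gene symbol in the platform annotation and 1719 none. The brightest probe stood for a gene. Features reaching 7.5 on at least 2 of the 8 arrays were tested (7446, of which 6934 named). On each array 8318 to 8324 probes reached 7.5. The number of arrays, 1 pool per stage, limits the precision, and p-values measure only the scatter of these pools.

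limma 3.58.1 in R 4.3.3 fitted a line over stage order (1 to 8) and, separately, the 4 embryonic against the 4 postnatal arrays, with Benjamini-Hochberg adjustment over all tested features at 0.05. The scripts were tested on simulated data. The difference of the transporters was tested by exact permutation, and neighbouring stages were compared at 2-fold without a test. Named were all members, up to 6 genes per pathway list past the trend threshold and fixed isoforms. The 5 genes most like each transporter and up to 3 markers per list were named as well. Some genes of these lists outside that rule were named after their values were seen. They are Adipoq, Fabp4, Gpd1, Pcx, Hif1a, Pdk1, Pdk2, Rpia and the reference genes that did not pass. The members and lists were chosen with earlier results of these data known. Alternatives changed the filter, the variance model, the array weights, the centring, the probe choice and the time scale, added muscle or epidermal markers as a covariate, or left out arrays.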

Additional observations from a re-analysis of the deposited data

Results flagged for a closer look

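In 1 of the 16 sets of 4 arrays examined (8 tested members in 2 periods) a single array stood far from the rest. Pfkl at P0 was at 10.49, below the other postnatal arrays, of which the nearest was at 11.30, a gap of 0.839 of the whole postnatal range. Chance alone marks about 1 in 20 such sets. P0 is also the postnatal array with the highest muscle and epidermal marker means, and their part in this value was not tested.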

How the results depend on the processing

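No paired analysis was possible because each stage has only 1 array, so that a replicate number cannot pair arrays between stages. The number of members that passed the trend stayed between 3 and 5 in all settings, while the features called over the whole array ran from 1661 (epidermal covariate) to 3058 (without e18.5), against 2905 as reported. Gapdh passed in every setting, and Slc2a4 in every setting that tested it, with a minimum on all 8 arrays leaving it out. Slc2a1 lost its call without e15.5, without e15.5 and P0, with the muscle covariate and in days, and Tpi1 without e15.5, without e15.5 and P0, without P12 and in days. Hk2 gained a call with array weights, without e15.5, without e15.5 and P0, and in days. The causes were not tested. The transporter difference kept its direction and an exact permutation p under 0.05 in every setting, with slopes of 0.43 to 0.62 per stage and 0.18 per day.

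The period comparison called 0 members as reported, 2 with the minimum on all 8 arrays, 5 with array weights, 1 with the muscle covariate, 4 with the epidermal covariate, and 0 to 4 when 1 array was left out. Over all features these settings called 1, 277, 1798, 226, 679 and 0 to 1880. At 1.5-fold 13 of 56 member steps were counted (23.2%, against 9.05% of the steps of all features) in place of 2 (3.57%, against 3.11%). These shares are not matched for level: at e15.5 the mean of the members was 11.53 and that of all tested features 9.02. Other alternatives were chosen after seeing the data. Leaving out e15.5 and P0 gave 2 calls in glucose transport, 0 in the pentose phosphate pathway and 1 among reference genes. The muscle covariate gave 2, 0 and 1, against 5, 2 and 3 as reported. Over all features these 2 settings called 2126 and 1799, against 2905.

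The Pfkl slope changed sign with array weights (-0.0355), without e15.5 and P0 (-0.0404), with the muscle covariate (-0.112) and with the epidermal covariate (-0.119, limma adjusted p = 0.0295, n = 8), and ran from -0.0404 to 0.0429 when 1 array was left out. The Aldoa slope changed sign with array weights (-1.58e-06), the muscle covariate (-0.00992) and the epidermal covariate (-0.0417), and ran from -0.0445 to 0.0462 when 1 array was left out. The Aldoa period difference ran from -0.502 to 0.0833. Values under 7.5 are compressed towards the floor, which limits Slc2a4 before e17.5 and leaves Hk1 and Pgk1 unmeasured.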

Other observations

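All 11 tested cell cycle genes fell with stage, with a mean level of 10.11 on the first array, 8.95 at e18.5 and 8.01 on the last. Over the same arrays 8 of 10 tested adipocyte markers rose. Lep, the gene of the adipocyte hormone leptin, was at 6.98 at e15.5 and 13.29 at P12, and Pnpla2, the main triglyceride lipase of fat cells, was at 8.44 and 14.71. Of 9 tested endothelial markers 1 rose and 0 fell, and their mean stayed between 9.25 and 10.06. Of 9 tested macrophage markers 3 rose and 1 fell. Among all tested features 18.3% rose and 20.7% fell.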
